A study of Mus musculus with 6 samples.

Results

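Radial glia are the elongated stem cells that line the ventricle of the embryonic brain, divide there and give rise first to neurons and later to astrocytes. Intermediate filaments, a brain fatty acid-binding protein and glutamate transporters mark them, and astrocytes keep or gain several of the same proteins together with enzymes of lipid and folate metabolism. The 9 genes described here are Nes, Vim, Fabp7, Slc1a2, Slc1a3, Prom1, Ednrb, Aldh1l1 and Acsbg1. They were taken by name, each matched through its Ensembl identifier in GENCODE M21 to 1 row of a count table of 48526 rows, and all 9 had enough reads to be tested.

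The RNA came from neural progenitor cells made from mouse embryonic stem cells (mESCs), with 3 control libraries (flox/flox) and 3 of the genotype -/- for Dmrta2, a zinc finger transcription factor of dorsal telencephalic progenitors. In a floxed allele, recombinase target sites flank the part of the gene to be removed. Cells of both lines grew in N2B27 medium with LDN193189 (100 nM), a BMP receptor inhibitor, and with SB431542 (10 µM), which blocks type I receptors for activin and TGF-beta, until day 4. XAV939 (1 µM), a Wnt pathway inhibitor, was present until day 6, and cyclopamine (1 µM), a Hedgehog pathway inhibitor, from day 2 to day 10. The cells were replated on day 5, and RNA was taken on day 8. Each genotype is 1 line, so line and genotype cannot be told apart, and p-values reflect only how far samples within a line differ. Libraries are called A, B and C after the columns of the table, and 3 values in a row always follow that order.

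Total counts lay between 24565560 and 39646793 per library. Levels are given as CPM, the reads of a gene scaled to a fixed library size after TMM normalisation. Dmrta2 itself measured 85.2, 75.1 and 79.2 CPM in flox/flox libraries and 409, 414 and 439 CPM in the -/- libraries. The count covers the whole gene, and the deleted segment is not named in the labels, so it does not check the deletion, and directions below are those of the libraries labelled -/-. Sox2, a transcription factor of neural progenitors, was present in all 6 libraries at 179 to 239 CPM. Sox2 alone does not identify the cells. A list of 6 pluripotent cell markers summed to 97.1 to 106 CPM in flox/flox and 59.6 to 81.7 CPM in -/- libraries. Among genes of mature astrocytes, Gfap was at 0.113 to 0.304 CPM, S100b at 0.0284 to 0.239 CPM and Ntsr2 at 0 reads in every library. There 3 reads, the limit a count of 0 allows, would be 0.0762 to 0.119 CPM. These genes are at the low end of a list of 30 other astrocyte genes. That list summed to 867 to 917 CPM in flox/flox and 1016 to 1021 CPM in -/- libraries. Within it, Id4 went from 130 to 333 CPM on average and Fgfr3 from 37.9 to 142 CPM. Neither reached an adjusted p under 0.05 (0.0528 and 0.0654, edgeR). Of its 24 tested genes, 4 were higher and 9 lower in -/- libraries at that threshold. These are bulk samples, in which fewer cells of a type and less RNA per cell cannot be told apart.

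Of the 9 genes, 5 rose (Ednrb, Acsbg1, Slc1a2, Fabp7 and Aldh1l1), 2 fell (Vim and Nes), and Slc1a3 and Prom1 did not pass the test. "Rose" and "fell" mean an adjusted p under 0.05 in edgeR's quasi-likelihood test, higher or lower in the libraries labelled -/-. Over all 20549 genes tested, 17.9% rose and 17.4% fell, 35.3% in all. Groups without overlap in CPM were seen for 7 of the 9 genes and for 51.0% of all genes tested. The median log2 change was 0.69 over the 9 genes and -0.00 over all genes tested. None of the 9 lies on chromosome 11, whose 1589 tested genes had a median log2 change of 0.49, against -0.02 for the other chromosomes. The count of 5 rises and 2 falls became 3 and 0 without flox/flox B. It was 5 and 0 without -/- B, 5 and 1 without flox/flox A or -/- C, and 6 and 2 without flox/flox C. Over all genes, 2315 rose and 2402 fell of 20939 tested without flox/flox B, against 3679 and 3571 of 20549 with it. The median log2 change over the 9 genes was 0.66 without that library.

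The DNA just before the transcript start of 4 of the 5 rising genes is shown here. The windows of Fabp7, Acsbg1 and Aldh1l1 were picked because they carry the letters of a motif, and that of Ednrb, which lacks them, for comparison. The window of Slc1a2, the other gene that rose, also lacks them and is not shown. The motif, TGGGAA on either strand, is the core bound by RBPJ, the DNA-binding partner of Notch, and Fabp7 is known as a target of Notch signalling in radial glia. Stretches are 5′ to 3′ in the direction of the gene, in lower case with the motif in capitals (TTCCCA is its reverse complement). They come from RefSeq promoters of build GRCm38.p6, up to 250 bases before the start, without bases that GENCODE M21 places in an exon. They are chr10:57784673-57784880 (plus strand) for Fabp7, chr9:54661886-54662135 (minus strand) for Acsbg1, chr6:90550543-90550788 (plus strand) for Aldh1l1 and chr14:103843702-103843951 (minus strand) for Ednrb.
Fabp7: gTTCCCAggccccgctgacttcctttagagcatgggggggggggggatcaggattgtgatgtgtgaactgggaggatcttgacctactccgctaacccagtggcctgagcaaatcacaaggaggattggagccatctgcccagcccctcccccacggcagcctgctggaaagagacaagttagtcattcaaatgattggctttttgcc
Acsbg1: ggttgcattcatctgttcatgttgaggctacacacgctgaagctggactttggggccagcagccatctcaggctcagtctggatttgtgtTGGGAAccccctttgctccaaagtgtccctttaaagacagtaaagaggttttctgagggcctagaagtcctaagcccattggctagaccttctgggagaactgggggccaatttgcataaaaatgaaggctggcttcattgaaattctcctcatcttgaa
Aldh1l1: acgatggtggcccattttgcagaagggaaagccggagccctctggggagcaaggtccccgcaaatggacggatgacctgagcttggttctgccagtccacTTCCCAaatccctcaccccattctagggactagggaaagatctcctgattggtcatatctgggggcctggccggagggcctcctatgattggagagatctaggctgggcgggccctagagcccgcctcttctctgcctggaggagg
Ednrb: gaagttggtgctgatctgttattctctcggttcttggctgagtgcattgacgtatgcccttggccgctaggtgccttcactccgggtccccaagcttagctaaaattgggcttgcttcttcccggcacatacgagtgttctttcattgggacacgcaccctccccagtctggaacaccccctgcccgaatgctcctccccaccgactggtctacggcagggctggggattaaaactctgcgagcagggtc
The Aldh1l1 stretch lies before a RefSeq start inside the gene, 64366 bases from the GENCODE gene start. The starts used for Ednrb and Slc1a2 are also inside their genes, 701 and 47779 bases from the GENCODE gene start. RefSeq gave 10 windows for the 9 genes, with 2 for Prom1. TGGGAA was found in 4 of the 10 full windows of 250 bases, those of Fabp7, Acsbg1, Aldh1l1 and Prom1, and in 21.6% of all 32851 windows. The core of the Dmrt motif, ACANTGT, which reads the same on both strands, was found in 1 of the 10, that of Vim, and in 6.47% of all windows. No window of the 10 held both motifs. The matched windows of Vim and Prom1 lie wholly in bases that GENCODE M21 places in an exon. A match describes letters and not binding, and a part of Notch signalling in the values of the 9 genes was not tested.

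**Figure D1:**
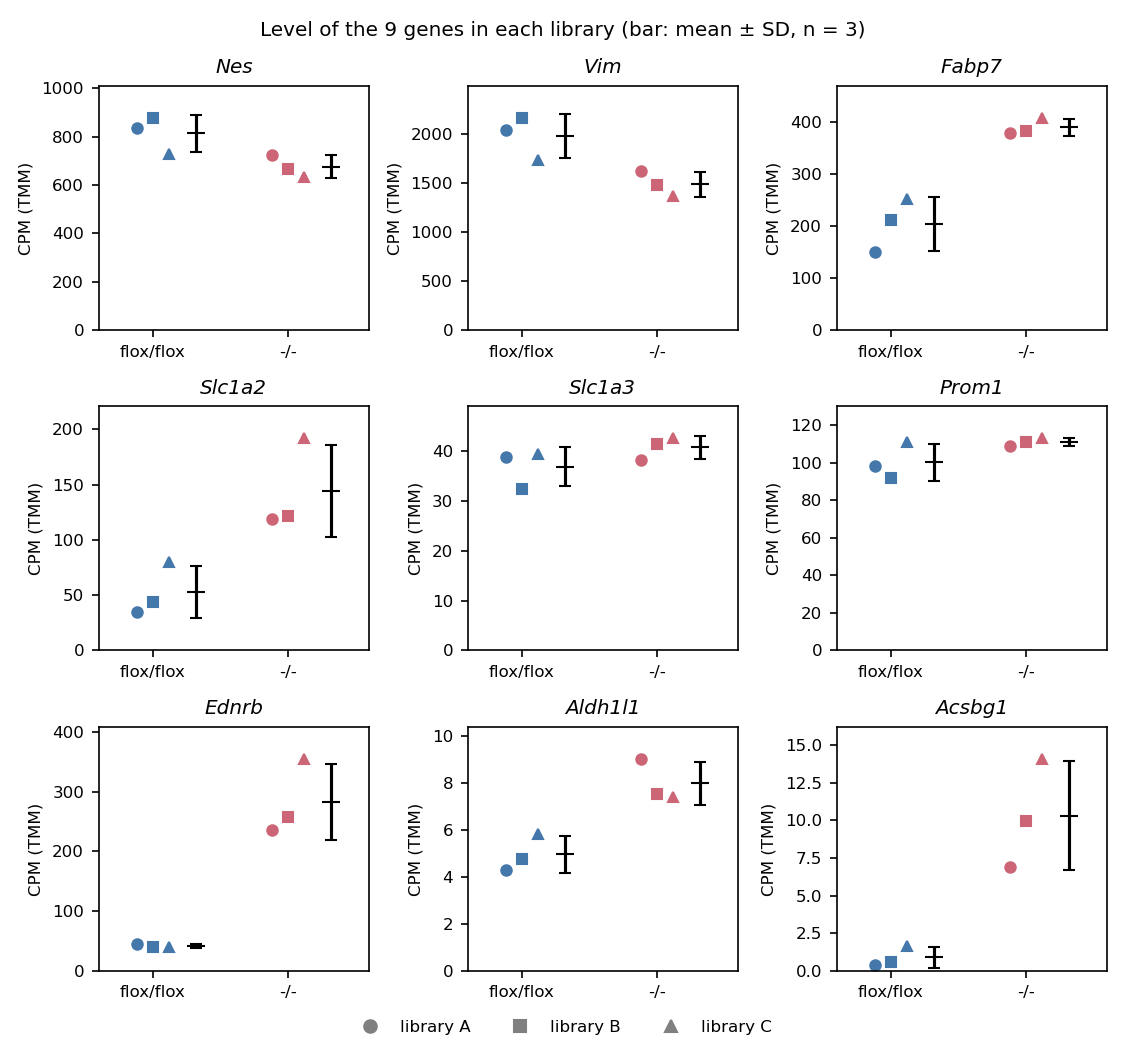
Level of each gene in each library, in CPM after TMM scaling (vertical axes start at 0). Symbols mark libraries A, B and C, and the bar beside each group is the mean ± SD of n = 3. The groups overlap for Slc1a3 and Prom1, and for Nes the nearest libraries of the 2 groups are at 727 and 726 CPM.

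Both filament genes of the progenitor cytoskeleton were lower in the libraries labelled -/-. Vim (ENSMUSG00000026728, GRCm38 chromosome 2, 13573927 to 13582826, plus strand) encodes vimentin, an intermediate filament of radial glia that mesenchymal cells also make. It measured 2042, 2163 and 1729 CPM in flox/flox libraries and 1618, 1480 and 1363 CPM in the -/- libraries. Every -/- library was below every flox/flox library, and flox/flox C was the lowest control. Vim fell by 0.41 ± 0.10 on the log2 scale (SE), or 1.33-fold (adjusted p = 0.0164, edgeR). The call was lost without flox/flox B (adjusted p = 0.0684, edgeR) and without -/- B (0.0622), in a range of 0.00201 to 0.0684 over the alternatives.

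Nes (ENSMUSG00000004891, chromosome 3, 87971078 to 87980451, plus strand) encodes nestin, the filament protein by which neural stem cells are usually recognised. It measured 835, 878 and 727 CPM in flox/flox libraries and 726, 668 and 635 CPM in the -/- libraries. The groups were separated only narrowly, between flox/flox C and -/- A. Nes fell by 0.27 ± 0.09 on the log2 scale (SE), or 1.20-fold (adjusted p = 0.0459, edgeR). The call was lost without flox/flox A (0.115), flox/flox B (0.165), -/- B (0.145) or -/- C (0.120), all in edgeR, with DESeq2 (0.0510) and with scaling factors computed without chromosome 11 (0.0628). Adjusted p for Nes lay between 0.0108 and 0.165 over the alternatives.

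Other intermediate filament genes, in a list chosen beside these 2, went both ways: 4 of 12 tested rose and 4 fell. Nefh (on chromosome 11), Nefm and Nefl, which encode neurofilament subunits of neurons, rose by 0.97, 0.45 and 0.48 (log2). Nefl and Nefm overlap, with 32.8% and 19.2% of their exonic bases under exons of the other. The rise of Nefl was lost without any 1 of the flox/flox libraries, and that of Nefm without flox/flox B. Krt18 and Krt8, the keratins of simple epithelia, fell by 1.55 and 1.59. Prph, the gene of peripherin, fell by 1.85, with 51, 25 and 36 reads in flox/flox and 10, 21 and 8 in -/- libraries. Without flox/flox B 1 of these filament genes rose, and without flox/flox A 2 rose. Gfap, the astrocytic filament gene, had too few reads to be tested.

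Fabp7, the brain lipid-binding protein that marks radial glia in contact with neurons, rose while the filament genes fell. Fabp7 (ENSMUSG00000019874, chromosome 10, 57784881 to 57788450, plus strand) was found at 149, 211 and 252 CPM in flox/flox libraries and 379, 382 and 408 CPM in the -/- libraries. The control libraries differed from each other more than those labelled -/-, which lay close together above all of them. The rise was 0.93 ± 0.17 (log2, SE), or 1.91-fold (adjusted p = 0.00519, edgeR), and stayed between 0.75 and 1.12 when any single library was left out. Within a column letter the log2 difference was 1.34 for A, 0.86 for B and 0.69 for C.

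The 2 glial glutamate transporters parted. Slc1a2 (ENSMUSG00000005089, chromosome 2, 102658659 to 102790784, plus strand) encodes the transporter that clears most synaptic glutamate in the adult forebrain. It measured 34.6, 43.9 and 79.7 CPM in flox/flox libraries and 119, 122 and 192 CPM in the -/- libraries. Library C was the highest of its group in both genotypes, and the groups did not overlap. Slc1a2 rose by 1.45 ± 0.32 (log2, SE), or 2.74-fold (adjusted p = 0.0118, edgeR). The call was lost without flox/flox B (adjusted p = 0.0529, log2 difference 1.34, edgeR), the highest of a range that began at 7.64e-05. Of the exonic bases of Slc1a2, 1.44% lie under exons of an antisense gene.

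Slc1a3 (ENSMUSG00000005360, chromosome 15, 8634124 to 8710764, minus strand) encodes the transporter of radial glia and of cerebellar astrocytes. It measured 38.9, 32.5 and 39.4 CPM in flox/flox libraries and 38.2, 41.5 and 42.6 CPM in the -/- libraries. The groups overlapped, as -/- A lay below flox/flox A and C. The log2 difference was 0.14 ± 0.09 (SE), with a 95% interval from -0.07 to 0.36 (adjusted p = 0.262, edgeR).

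The ratio of Slc1a2 to Slc1a3, both taken per kilobase of exon, needs no scaling between libraries. It was 0.579, 0.878 and 1.32 in the flox/flox libraries and 2.02, 1.91 and 2.92 in the -/- libraries. Slc1a2 was thus the less abundant of the pair per exon length in flox/flox A and B and the more abundant in the other 4 libraries. The log2 ratio was -0.19 ± 0.59 and 1.17 ± 0.33 (SD, n = 3), a difference of 1.36 with p = 0.100 in an exact two-sided permutation test, the smallest p that 3 libraries against 3 can give.

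In the list of other genes of glutamate transport and metabolism, 3 of 13 tested rose and 3 fell, with a median log2 change of -0.03. Slc1a1, a neuronal glutamate transporter, fell by 1.31 and Slc1a5, a neutral amino acid transporter of the same family, by 0.50. Glul, the glutamine synthetase of astrocytes and radial glia, rose by 0.31, Slc1a4, another neutral amino acid transporter and on chromosome 11, by 0.34, and Slc17a6, a vesicular transporter of glutamatergic neurons, by 1.07. Glud1, glutamate dehydrogenase, fell by 0.18, a call that the alternatives did not bear out evenly (adjusted p from 0.0280 to 0.131 in edgeR and the other tools). None of the 3 rises was called without flox/flox B, and 1 gene of the list rose without -/- A.

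Surface proteins came next. Ednrb (ENSMUSG00000022122, chromosome 14, 103814625 to 103844402, minus strand) encodes the endothelin receptor type B, a G protein-coupled receptor of radial glia and astrocytes that neural crest cells and endothelium also carry. It measured 45.4, 40.3 and 39.8 CPM in flox/flox libraries and 236, 258 and 355 CPM in the -/- libraries. The controls lay within a few CPM of each other, and even the lowest -/- library was far above them. Ednrb rose by 2.76 ± 0.16 (log2, SE), or 6.76-fold (adjusted p = 0.000199, edgeR), with 5.94-fold and 7.34-fold as the extremes when 1 library was left out.

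The other genes of the endothelin pathway went both ways. Of 5 other genes tested, Ednra, the type A receptor, rose by 1.05 and 3 fell. Edn1 and Edn3, ligands of the receptors, fell by 2.61 (2.00 without flox/flox A) and 1.07, and Ece1, the enzyme that cleaves the ligand precursors, fell by 0.44. Edn1 measured 7.94, 4.63 and 1.51 CPM in flox/flox libraries and 1.02, 0.879 and 0.352 CPM in the -/- libraries. Without flox/flox B, or without any 1 of the -/- libraries, only 1 of the 3 falls was called, and the rise of Ednra was lost without flox/flox B or -/- B.

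Markers of other cells that carry Ednrb went different ways. Sox10, the defining factor of neural crest and oligodendrocyte precursors, was at 0.0760 to 0.135 CPM in flox/flox and 0.229 to 0.493 CPM in -/- libraries and had too few reads to be tested. In the neural crest and mesenchyme list, 6 of 10 tested genes fell and 1 rose (2 rose without flox/flox A or -/- A), with a summed level of 414 to 1002 CPM in flox/flox and 185 to 256 CPM in -/- libraries. In the endothelial list, 1 of 4 tested genes fell and 0 rose, with sums of 58.2 to 91.6 and 9.18 to 21.4 CPM. The gene that fell was Kdr, and the other 3 tested genes did not pass. Kdr alone measured 78.6, 53.3 and 28.4 CPM in flox/flox libraries and 6.23, 3.12 and 2.89 CPM in the -/- libraries. Tie1 was at 0 reads in the flox/flox libraries and at most 0.0851 CPM in the others. The oligodendrocyte lineage list had 2 rises and 1 fall among 8 tested genes, with sums of 61.4 to 74.2 and 78.3 to 94.9 CPM, and 0 of its genes rose without flox/flox B and 1 without flox/flox C or -/- B. Its falls were 0 without -/- B and 2 without -/- C. The largest values in that list were Mbp, at 42.4 CPM in flox/flox and 40.5 CPM in -/- on average, and Pdgfra, at 17.0 and 29.9 CPM. Neither passed. The part of these cells in the level of Ednrb was not tested.

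Prom1 (ENSMUSG00000029086, chromosome 5, 43993620 to 44102032, minus strand) encodes prominin, a membrane protein of apical protrusions that is used to isolate neural stem cells. It measured 98.2, 91.7 and 111 CPM in flox/flox libraries and 109, 111 and 113 CPM in the -/- libraries. The groups overlapped at flox/flox C, and the -/- libraries were the tighter group. The log2 difference was 0.14 ± 0.08 (SE), with a 95% interval from -0.04 to 0.32 (adjusted p = 0.188, edgeR). Without flox/flox C it was 0.23 and passed (adjusted p = 0.0328, edgeR), where the other alternatives gave up to 0.490. Of the exonic bases of Prom1, 5.91% lie under exons of an antisense gene, whose reads cannot be told apart if counting did not use strand.

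Other genes of the apical membrane and junctions, where radial glia hold on to each other at the ventricle, fell in 9 of 11 tested members and rose in 0, with a median of -0.40. Without flox/flox B 6 fell. Crb2, a polarity protein of the apical membrane, fell from 217, 216 and 186 CPM in the flox/flox libraries to 118, 107 and 84.3 CPM in the -/- libraries (adjusted p = 0.00129, edgeR). Pard6b, a scaffold of the Par polarity complex, fell by 1.17 (log2), and Numbl, a regulator of Notch receptor traffic, by 0.55. Epithelial markers, which share junction genes, fell in 5 of 7 and rose in 0, with sums of 341 to 503 CPM in flox/flox and 112 to 205 CPM in -/- libraries. The part of these cells in the values of Prom1, Vim or the apical genes was not tested.

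Enzymes of lipid and folate metabolism that later define astrocytes rose from low levels. Acsbg1 (ENSMUSG00000032281, chromosome 9, 54604877 to 54661870, minus strand) encodes an acyl-CoA synthetase that activates long-chain fatty acids. It had 12, 16 and 42 reads in the flox/flox libraries and 273, 351 and 402 reads in the -/- libraries. That is 0.405, 0.608 and 1.67 CPM against 6.94, 9.95 and 14.1 CPM. The groups did not overlap, and flox/flox C stood above the other 2 controls. Acsbg1 rose by 3.55 ± 0.48 (log2, SE), or 11.7-fold (adjusted p = 0.00162, edgeR), and without flox/flox C by 4.36, or 20.5-fold.

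Aldh1l1 (ENSMUSG00000030088, chromosome 6, 90486427 to 90600203, plus strand) encodes a cytosolic formyltetrahydrofolate dehydrogenase that is widely used as an astrocyte marker. It measured 4.29, 4.75 and 5.82 CPM in flox/flox libraries and 9.02, 7.51 and 7.39 CPM in the -/- libraries. The groups did not overlap. Aldh1l1 rose by 0.69 ± 0.15 (log2, SE), or 1.62-fold (adjusted p = 0.0118, edgeR), and missed the threshold without flox/flox B (0.0513), where the alternatives ranged from 0.000930 to 0.0513. Of its exonic bases 13.4% lie under exons of 2 noncoding genes, 1 of them antisense.

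In the lists of both pathways, 14.3% of tested fatty acid genes rose and 42.9% fell, and 16.7% of folate genes rose and 8.33% fell, against 17.9% and 17.4% of all genes tested. Of 7 tested genes of fatty acid binding and acyl-CoA synthesis, Acsl6, an acyl-CoA synthetase of brain on chromosome 11, rose by 1.71 (log2), and Fabp3, a fatty acid-binding protein, Acsl5 and Acsl4, which encode acyl-CoA synthetases, fell by 1.56, 0.66 and 0.30. The fall of Acsl4 was lost without any 1 library other than flox/flox C, with adjusted p of up to 0.164 in edgeR. It was also lost with scaling factors computed without chromosome 11. Of 12 folate genes, Aldh1l2, the mitochondrial counterpart of Aldh1l1, rose by 1.50 and Shmt1, a serine hydroxymethyltransferase on chromosome 11, by 0.72. Folr1, a folate receptor that is also a choroid plexus marker, fell by 3.09, and 9 folate genes did not pass. With the column letter as a replicate block 2 folate genes fell. Choroid plexus markers fell in 3 of 5 tested genes, Folr1 among them, with sums of 169 to 285 CPM in flox/flox and 72.7 to 76.1 CPM in -/- libraries. Most of these sums was Otx2, at 199, 168 and 119 CPM in flox/flox and 63.0, 63.7 and 70.3 CPM in -/- libraries. Ttr and Aqp1 did not pass, and the log2 change of Ttr ranged from -2.78 to 0.23 with 1 library left out.

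**Figure D2:**
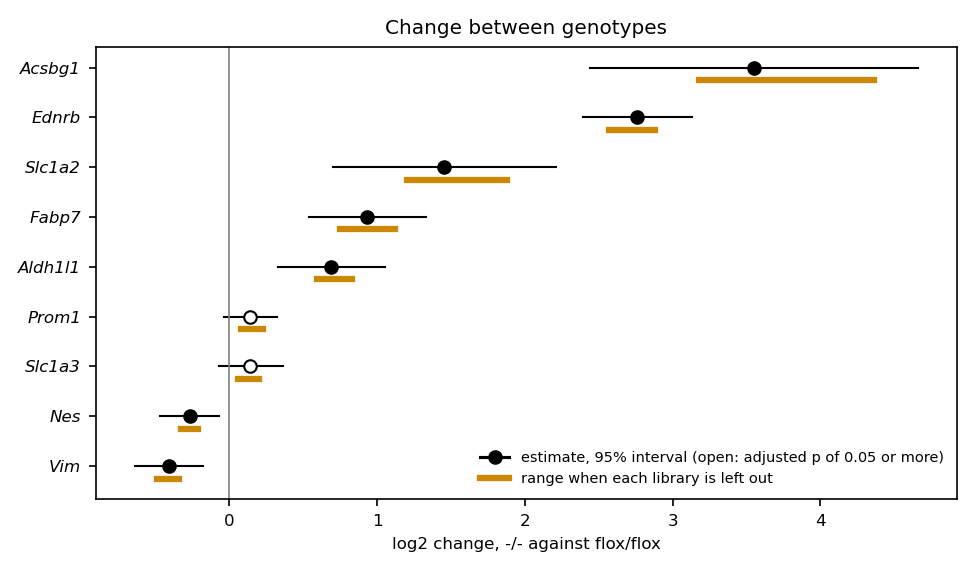
Log2 change of each gene between genotypes, with its 95% interval (black) and the range of estimates when each library is left out in turn (orange). Filled points have an adjusted p under 0.05 in edgeR. Ednrb and Acsbg1 lie at 2.76 and 3.55, and Vim and Nes at -0.41 and -0.27.

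Levels of different genes can be compared per kilobase of exon. In flox/flox libraries the order was Vim (417 ± 47.2 CPM per kilobase, SD, n = 3), Fabp7 (163 ± 41.4), Nes (127 ± 12.1), Prom1 (14.0 ± 1.37), Ednrb (9.81 ± 0.724), Slc1a3 (4.32 ± 0.451), Slc1a2 (4.02 ± 1.81), Aldh1l1 (1.10 ± 0.173) and Acsbg1 (0.248 ± 0.189). Libraries of Fabp7 and Nes overlapped on this scale, as did those of Slc1a3 and Slc1a2, and the other neighbours did not. In -/- libraries Vim (314 ± 26.9) and Fabp7 (312 ± 12.7) overlapped. They were followed by Nes (105 ± 7.22), Ednrb (66.4 ± 14.9), Prom1 (15.4 ± 0.298), Slc1a2 (9.04, 9.29 and 14.6 in the 3 libraries), Slc1a3 (4.78 ± 0.268), and Acsbg1 (2.87 ± 1.00) and Aldh1l1 (1.77 ± 0.201), which overlapped. Ednrb thus stood below Prom1 in the controls and above it in the libraries labelled -/-. Exon lengths are those of all annotated transcripts joined, so a gene transcribed from few of its exons is placed too low.

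**Figure D3:**
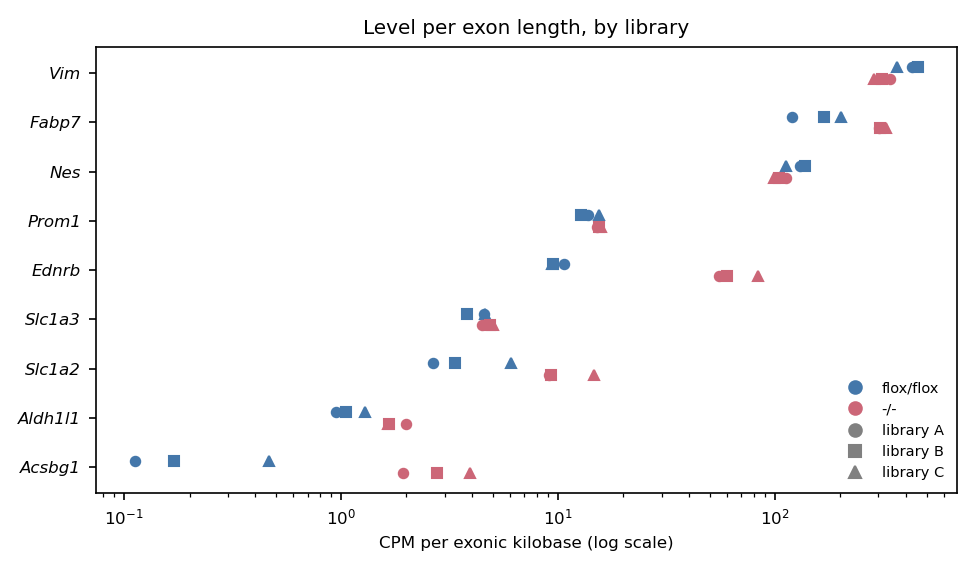
Level of each gene per kilobase of annotated exon in each library (log axis), flox/flox in blue and -/- in red, with a symbol for each library letter. Fabp7 and Vim reach similar levels in the -/- libraries, at 312 and 314 CPM per kilobase on average, and Ednrb moves from 9.81 to 66.4.

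Other genes of radial glia also went both ways. In a list of 21 further radial glia genes, all of them tested, 8 rose and 7 fell, with a median of -0.16. The rises were 5 without -/- B. Pax6, a transcription factor of cortical radial glia, rose from 113, 113 and 97.6 CPM in the flox/flox libraries to 163, 162 and 162 CPM in the -/- libraries. Notch1, the receptor that keeps radial glia in the progenitor state, rose by 1.12 ± 0.14 (log2, SE; adjusted p = 0.00120, edgeR), and Sox9, a factor of gliogenesis that lies on chromosome 11, by 1.16. The 2 Notch effector repressors of the list parted. Hes1 fell by 0.57, a call lost without -/- B. Hes5 rose by 0.92, a call lost without flox/flox B, -/- B or -/- C and with the filter of 1 CPM in 3 libraries. Lifr, a receptor subunit for the cytokines that induce astrocyte formation, fell by 0.75, Sox2 by 0.37 and Mfge8, a secreted glycoprotein, by 1.54.

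Of 30 other astrocyte genes, 24 were tested, of which 4 rose and 9 fell, with a median of -0.35. Without flox/flox B 2 rose and 7 fell. S1pr1, a receptor for sphingosine phosphate, rose by 1.28, beside Glul. Nfib, a nuclear factor I gene that takes part in gliogenesis, fell from 41.5, 29.4 and 35.0 CPM in the flox/flox libraries to 8.77, 8.65 and 11.6 CPM in the -/- libraries (adjusted p = 0.000453, edgeR). Clu, the gene of the secreted chaperone clusterin, fell by 3.46, and Slc39a12, a zinc transporter, fell by 3.38. Acsbg1, Slc1a2 and Aldh1l1 rose in libraries in which Gfap, S100b, Gjb6, Ntsr2, Hepacam and Agt were too low to be tested.

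Neuron markers were higher beside the falls of Nes and Vim and the rises of Ednrb, Acsbg1, Slc1a2, Fabp7 and Aldh1l1. Of 10 listed, 9 rose and 0 fell, with sums of 1635 to 2550 CPM in flox/flox and 3050 to 4956 CPM in -/- libraries. Without flox/flox B 3 rose (median log2 change 0.99), and without flox/flox A 5 rose (0.84), against a median of 1.03 with all libraries. Dcx, a microtubule protein of migrating neurons, measured 166, 232 and 340 CPM in flox/flox libraries and 500, 574 and 862 CPM in the -/- libraries. Within each group the library with the highest Dcx, C, also had the highest Slc1a2, Acsbg1 and Fabp7 and the lowest Nes and Vim. Ednrb and Aldh1l1 did not follow this order, since Ednrb was lowest in flox/flox C (39.8 CPM) and Aldh1l1 in -/- C (7.39 CPM). The part of neuron number in the values of the 9 genes was not tested.

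**Figure D4:**
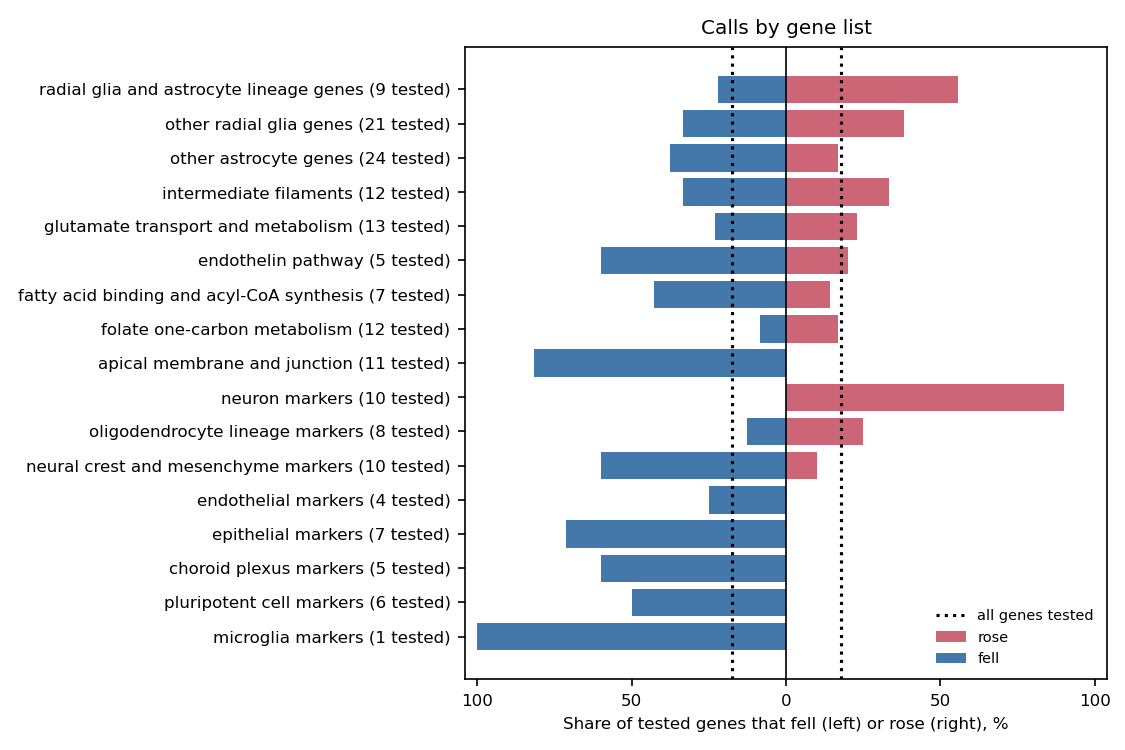
Share of tested genes that rose (right, red) or fell (left, blue) in each list, with dotted lines at the 17.9% and 17.4% of all genes tested. The 9 genes have 5 rises and 2 falls, neuron markers 9 rises among 10, and apical membrane and junction genes 9 falls among 11.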

How the data were processed

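The deposited table holds unnormalised read counts of 6 libraries, 1 row per Ensembl gene. Per the submitters' processing notes, the authors used BWA 0.5.9 and featureCounts 1.4.6 on mm10 (GRCm38). Its name states that duplicate reads were marked. Not given in the sources used here are the annotation release, the strand setting and what was done with reads that map to several places. Libraries were made from 1 µg of RNA with a stranded mRNA kit, per the labels' protocols.

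Symbols, positions and exon lengths came from GENCODE M21 on GRCm38. Column names give genotype and a letter, so columns were assigned to groups. Counts were tested in R 4.3.3 with edgeR 4.0.16 (glmQLFit, glmQLFTest, group alone, TMM scaling, filterByExpr with minimum count 10 and minimum total count 15), two-sided, with Benjamini-Hochberg adjustment over 20549 genes. The SE is the log2 change over the root of its F statistic. The script was tested on simulated counts. Libraries of a group differed by more than sampling noise (chi-square per gene 5.47 to 29.8).

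Same-letter libraries deviated together from their group means (correlations over 13845 genes of 0.435, 0.190 and 0.420 for A, B and C), so the letters were treated as pairs in an alternative fit. Other alternatives were 3 other scalings, 2 other filters, DESeq2 1.42.0, limma-voom (3.58.1), each library left out, and a threshold of 0.01. The genes and lists were chosen with earlier results of these data known. Named are the 9 genes, Dmrta2, up to 3 genes of each list in either direction, by smallest adjusted p,, and for each of the 9 the gene most alike. Genes outside this rule were named after their values were seen, as were the 2 motifs. These genes are Gfap, S100b, Ntsr2, Gjb6, Hepacam, Agt, Id4, Fgfr3, Sox10, Mbp, Pdgfra, Tie1, Ttr, Aqp1, Hes1 and Hes5. Of the marker lists, pluripotent cell markers had 0 rises and 3 falls among 6 tested genes (1 fall without flox/flox A or B, 1 rise with the pairs), and microglia markers 1 fall in the 1 gene tested (0 falls without flox/flox B or -/- B). A gene that the rule selects is not reported here.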

Additional observations from a re-analysis of the deposited data

How the results depend on the processing

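Of the 9 genes, 0 changed direction under any alternative. The number that rose was 5 under the other scalings, filters and tests, and between 3 and 6 with 1 library left out. The number that fell lay between 0 and 2 with 1 library left out, and was 1 with DESeq2 and with scaling factors that exclude chromosome 11, as Nes was lost; the cause was not tested. Together 3 to 8 passed with 1 library left out. At a threshold of 0.01, 3 rose and 0 fell, 3 in all. With the column letter as a replicate block 5 rose and 2 fell, the same genes as without it, so the block changed no call among the 9. It did change precision: the SE of Slc1a2 went from 0.32 to 0.10 (adjusted p from 0.0118 to 7.64e-05, edgeR). That of Aldh1l1 went from 0.15 to 0.16. The fits with 1 library left out did not use the block, so calls lost in them are calls of the unpaired fit. Over all genes, 2315 to 3510 rose and 2342 to 3336 fell with 1 library left out, 4717 to 6846 in all. At 0.01 it was 1992 and 1895, 3887 in all, and with the block 4358 and 4171. Of the listed pathway genes, 22 rose and 38 fell, 60 in all. These were 12 to 24, 27 to 39 and 41 to 63 with 1 library left out, and 11, 24 and 35 at 0.01. The difference in the log2 ratio of Slc1a2 to Slc1a3 lay between 1.06 and 1.65 with 1 library left out and was 1.36 with 0.5 or 5 counts added. Over 66 named genes and their alternatives, 853 of 921 values kept their direction and side of the threshold, 67 lost the call, 1 gained it and 0 reversed. Depth limits Acsbg1 most, with 12 reads in its lowest library.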

Other observations

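For each of the 9 genes, the gene most like it over the 6 libraries was sought among 11506 named genes with a mean of at least 5 CPM, by the Pearson correlation of log2 CPM. The 6 libraries fall into 2 genotypes, so any gene that differs between them scores high, and the values are a description. For Fabp7 it was Wnt7a (r = 0.9982), which encodes a Wnt ligand and went from 4.61 to 34.7 CPM on average. For Slc1a2 it was Epha5 (0.9988), an ephrin receptor gene that went from 13.0 to 50.4 CPM. For Ednrb it was Wscd1 on chromosome 11 (0.9994), and for Acsbg1 Akna (0.9993). For Vim it was Zbtb42 (0.9984), for Nes Fxr1 (0.9978), for Aldh1l1 the cyclin gene Ccne2 (0.9976) and for Prom1 Ccsap (0.9940). For Slc1a3 it was Fez2 (0.9728). A correlation over 0.95 was reached by 1108 genes for Ednrb and 1066 for Acsbg1, but by 31 for Prom1 and 5 for Slc1a3.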
